A study of Mus musculus with 18 samples.

Results

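A set of 8 genes of hydrogen sulfide and cysteine sulfur metabolism, out of 35551 genes listed, were followed in the mouse hepatocyte line AML12, treated with pemafibrate or its solvent DMSO. They were listed for their roles around Mpst, and the set was chosen by the normalized counts of Mpst, which were lower with pemafibrate in all 9 pairs of libraries with the same replicate number. The pemafibrate values of Mpst are therefore given as a description with no test. The other 7 genes were listed by function, with earlier results of these data known, and were tested across the whole table. The names Mpst, Tst, Cbs, Cth, Ethe1, Suox, Got1 and Cdo1 each matched 1 Ensembl identifier.

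In every group the circadian clocks of the cells had been synchronized first. Pemafibrate, which activates the fatty acid sensor PPARα selectively, or DMSO was present from T0 to T24, the 24 h reference exposure of the study, or for 6 h from T14 to T20 (to mimic day) or from T24 to T30 (to mimic night). The 18 libraries form 6 groups of 3, and no allele or other agent is named for any group. The pemafibrate concentration is not given in the sources used here. AML12 is 1 non-tumour line from a mouse carrying a human TGFα transgene, and whether replicates were separate cultures is not stated, so p-values reflect the spread among these libraries alone, and that spread may be technical. In bulk RNA, fewer cells of a type and less RNA per cell cannot be told apart.

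Mammalian cells make hydrogen sulfide from cysteine and homocysteine along a few routes. Cystathionine β-synthase (Cbs) and cystathionine γ-lyase (Cth) carry sulfur from homocysteine to cysteine and can release sulfide on the way. An aminotransferase such as Got1 turns cysteine into 3-mercaptopyruvate, whose sulfur the sulfurtransferase Mpst takes up as a persulfide that can be released as sulfide. In mitochondria sulfide is turned into persulfides, which Ethe1 oxidizes to sulfite. The rhodanese Tst forms or uses thiosulfate, and Suox turns the sulfite into sulfate. Cdo1 opens a separate route, in which cysteine is oxidized towards taurine and sulfate. The liver is a main organ of all these steps.

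Mpst lies next to Tst, its paralog, in the RefSeq gene order of GRCm38.p6, with no protein-coding gene between them. None of the 2136 stretches of 31 bases in Mpst transcripts of GENCODE M21 occurred in transcripts of another gene. For Tst 10 of 3112 did and for Cbs 409 of 7551 (5.42%), and for Cth, Ethe1 and Got1 none did. The annotation the authors counted on is not given in the sources used here. The RefSeq promoter table (GRCm38.p6, 300 bases around a start) held Mpst, Cbs, Ethe1, Suox and Got1. The window of the first of the 3 starts listed for Mpst, the gene that the set was built around, lies on the plus strand at chr15:78406462-78406761. It is shown beside that of Got1, which lies on the minus strand at chr19:43524556-43524855 and held the only match to the ATF4 element among these windows. Capitals mark that match.
Mpst: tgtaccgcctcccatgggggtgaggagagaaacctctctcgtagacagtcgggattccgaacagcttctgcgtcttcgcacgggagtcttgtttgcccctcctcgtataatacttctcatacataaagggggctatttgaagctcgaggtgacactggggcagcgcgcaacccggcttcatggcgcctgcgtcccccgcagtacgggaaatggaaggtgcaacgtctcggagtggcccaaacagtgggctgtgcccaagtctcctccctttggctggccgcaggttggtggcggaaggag
Got1: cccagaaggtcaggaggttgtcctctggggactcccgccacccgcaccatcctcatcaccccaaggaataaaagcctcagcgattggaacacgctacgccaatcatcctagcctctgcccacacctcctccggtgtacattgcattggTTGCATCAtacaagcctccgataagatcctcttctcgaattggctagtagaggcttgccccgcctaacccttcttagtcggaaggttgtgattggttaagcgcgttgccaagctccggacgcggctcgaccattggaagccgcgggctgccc
The motifs below were searched on both strands, and the half-site lies within the direct repeat. DR1, the direct repeat of AGGTCA with 1 base between the copies that PPARα binds with its partner RXR, was found in no window of these 5 genes, and 0.0396% of the 32851 promoters in the table held it. The half-site AGGTCA was found for Got1 alone (16.3% of all promoters), CACGTG, the E-box of the clock factors, for Cbs alone (7.15%), and TGATGCAA, the ATF4 element, for Got1 alone (0.895%). Such a match is only a description of the letters in the window.

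The libraries differed by replicate number more than by treatment. A library's normalized total was 31461977 to 33884634, and totals within a pair differed by −0.629% to 0.781%. Of 12 hepatocyte markers 9 reached a mean of 10, among them Alb, Ttr and Hnf4a, while Apoa1, Cps1 and Cyp2e1 did not. Markers of other cell types that reached this mean were 4 of 5 biliary, 3 of 6 fibroblast and stellate, 2 of 4 macrophage, 1 of 4 endothelial and 0 of 2 T and B cell genes. Summed biliary markers were 50225 to 76849 with DMSO and 49624 to 73825 with pemafibrate, and summed fibroblast markers 93.3 to 200.5 and 123 to 174. Of the macrophage genes, Csf1r (137 to 269) and Cd68 (29.3 to 60.7) were measured in every library, while Adgre1 and Clec4f were at 0 in all. The summed hepatocyte markers ran from 133277 to 180812 with DMSO and from 129026 to 177712 with pemafibrate. The PPARα targets Acot1, Angptl4 and Plin2 rose over the 3 windows, with log2 differences of 0.73 ± 0.04, 0.57 ± 0.03 and 0.37 ± 0.02 (SE, limma with each pair as a block, adjusted p = 2.7e-07, 1.4e-06 and 1.8e-06). Without the block Acot1 and Plin2 did not pass (adjusted p = 0.076 and 0.060) and Angptl4 did.

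Mpst was lower with pemafibrate in every pair, and the difference was small. Over T0 to T24 its normalized counts with DMSO were 837, 974 and 855 in replicates 1, 2 and 3, and with pemafibrate 707, 846 and 787. Over T14 to T20 they were 796, 982 and 764 with DMSO and 686, 872 and 736 with pemafibrate. Over T24 to T30 they were 861, 1133 and 808 with DMSO and 740, 1042 and 731 with pemafibrate. In each window replicate 2 was the highest library of both treatments, and its pemafibrate library lay above the lowest DMSO library, so the groups overlapped although every pair went down.

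The mean log2 difference within pairs of Mpst was −0.19 ± 0.06 for T0 to T24, −0.15 ± 0.08 for T14 to T20 and −0.16 ± 0.05 for T24 to T30 (SD, n = 3 pairs). Over the 9 pairs it was −0.17 ± 0.06 (SD), a change of −10.8%, with single pairs from −15.5% to −3.57%. The pair nearest to no change was replicate 3 over T14 to T20 (−0.05). Replicate 1 had the largest drop in all 3 windows, at −0.24, −0.21 and −0.22. Among the 13258 genes with a mean of at least 10, 40 genes (0.302%) were lower in 9 of 9 pairs and 0.483% were higher in 9 of 9. Since this pattern chose the gene, nothing is read from that share. Within windows, replicate number made up 67.9% of the variance of Mpst and treatment 19.6%, against medians over all genes of 57.2% and 1.11%. A raised treatment share follows in part from the choice of Mpst, so nothing is read from it either.

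**Figure D1:**
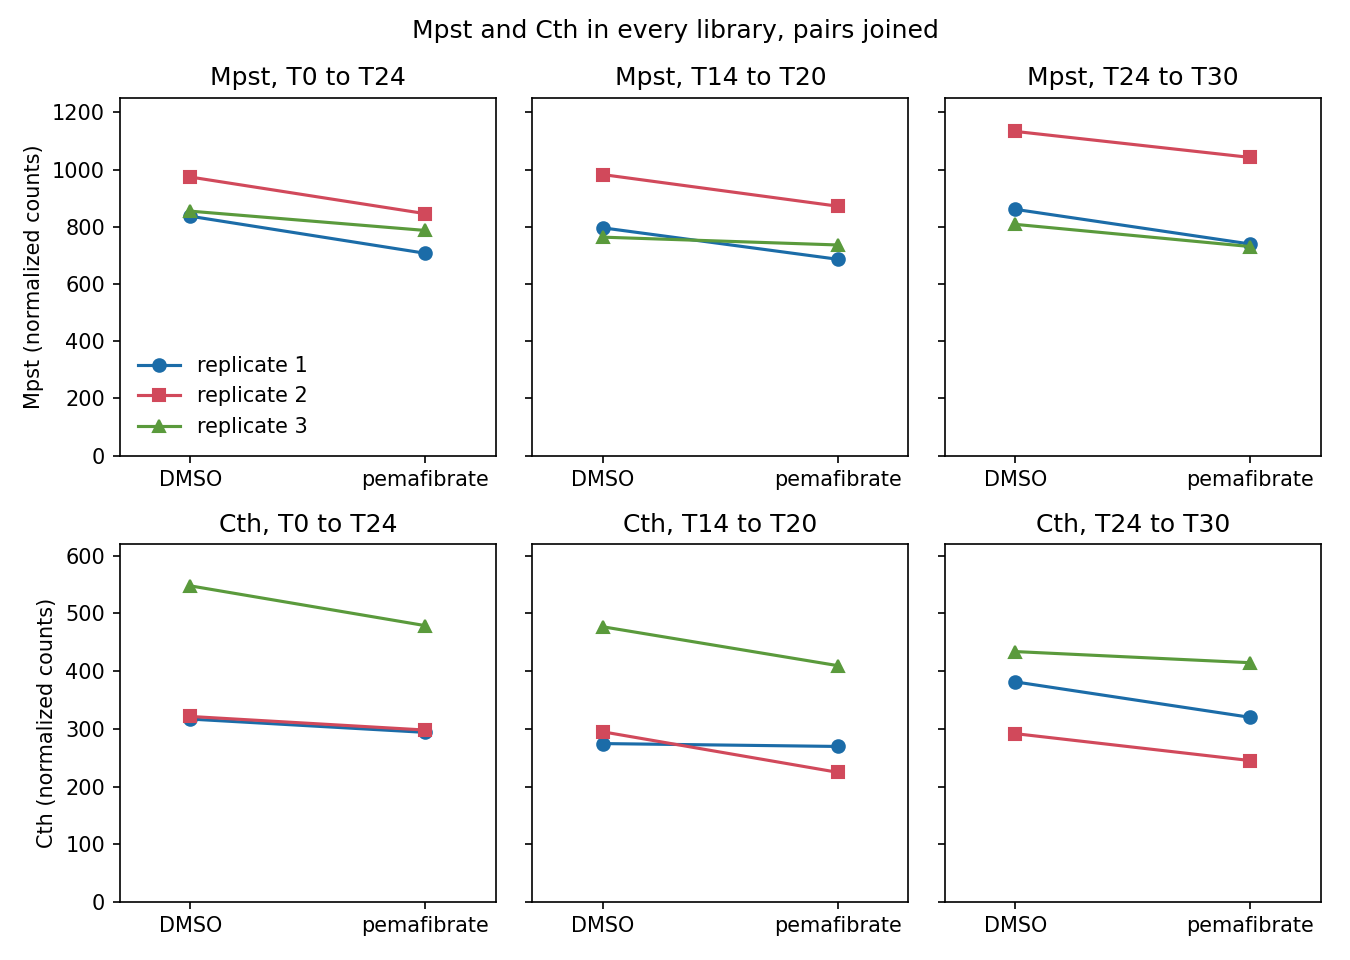
Normalized counts of Mpst (top) and Cth (bottom) in each of the 18 libraries, by treatment (x axis) and window (panels), with the libraries of a pair joined and replicate numbers in colour. All 18 lines slope down, while the replicates lie further apart than the ends of a line in most panels.

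Cth, the other gene of this set that was lower in 9 of 9 pairs, makes cysteine from cystathionine and is a main source of hydrogen sulfide in liver. Over T0 to T24 it had 317, 321 and 548 normalized counts with DMSO in replicates 1 to 3, and 294, 298 and 479 with pemafibrate. Over T14 to T20 it had 274, 295 and 477 with DMSO, and 269, 225 and 410 with pemafibrate. Over T24 to T30 it had 381, 292 and 434 with DMSO, and 320, 245 and 415 with pemafibrate. Here replicate 3 was the highest library of both treatments in every window, and the groups overlapped.

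The pair differences of Cth averaged −0.18 ± 0.11 (SD, n = 9 pairs), a change of −11.7%, and ranged from −0.39 to −0.03. They varied more than those of Mpst. Cth did not pass the test across all genes, with a log2 difference of −0.18 (95% interval −0.28 to −0.08, limma, adjusted p = 0.293) over the 3 windows. By window its log2 differences were −0.14 ± 0.08, −0.21 ± 0.10 and −0.19 ± 0.08 (SE, limma, adjusted p = 0.956, 0.620 and 0.669).

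Cbs, which joins homocysteine and serine ahead of Cth, showed no common direction. Over T0 to T24 its normalized counts were 1116, 709 and 371 with DMSO and 1211, 552 and 371 with pemafibrate. It was lower in 4 and higher in 5 of 9 pairs, from −0.36 to 0.27 on the log2 scale, with a difference over the 3 windows of −0.02 (95% interval −0.16 to 0.12, limma, adjusted p = 0.980). Its libraries with the same treatment differed widely, as the 371 of replicate 3 beside the 1116 of replicate 1 shows.

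Got1, the cytosolic aspartate aminotransferase that can supply the substrate of Mpst, was the steadiest of the 8 genes. Over all libraries it stayed between 3900 and 4507 normalized counts. Its log2 difference over the 3 windows was 0.01 (95% interval −0.03 to 0.05, limma, adjusted p = 0.983), with 5 pairs higher and 4 lower.

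Among the genes that act after sulfide has formed, Tst, the rhodanese next to Mpst, lay between 1107 and 1541 in all libraries. It was lower in 5 and higher in 4 of 9 pairs, and its log2 difference over the 3 windows was −0.02 (95% interval −0.08 to 0.04, limma, adjusted p = 0.942). Ethe1, the persulfide dioxygenase of mitochondria, was lower in 8 of 9 pairs. The exception was replicate 3 over T0 to T24, where it had 868 with DMSO and 884 with pemafibrate. Its log2 difference was −0.07 (95% interval −0.13 to −0.0016, limma, adjusted p = 0.767), so it did not pass across all genes. Suox, which makes sulfate from sulfite, was lower in 6 of 9 pairs, at −0.04 (95% interval −0.13 to 0.06, limma, adjusted p = 0.927).

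Cdo1, the cysteine dioxygenase, was near the limit of measurement, from 4.84 to 22.7 normalized counts. Over T0 to T24 it had 22.7, 15.7 and 14.7 with DMSO and 19.5, 13.3 and 5.69 with pemafibrate. Over T14 to T20 its group means were 9.28 ± 3.33 with DMSO and 8.68 ± 1.61 with pemafibrate (SD, n = 3), below the minimum mean of 10, so it was not tested there. Its pair differences ran from −1.23 to 1.58 on the log2 scale, and the interval over the 3 windows (−0.58 to 0.54) leaves its change unresolved at these levels.

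**Figure D2:**
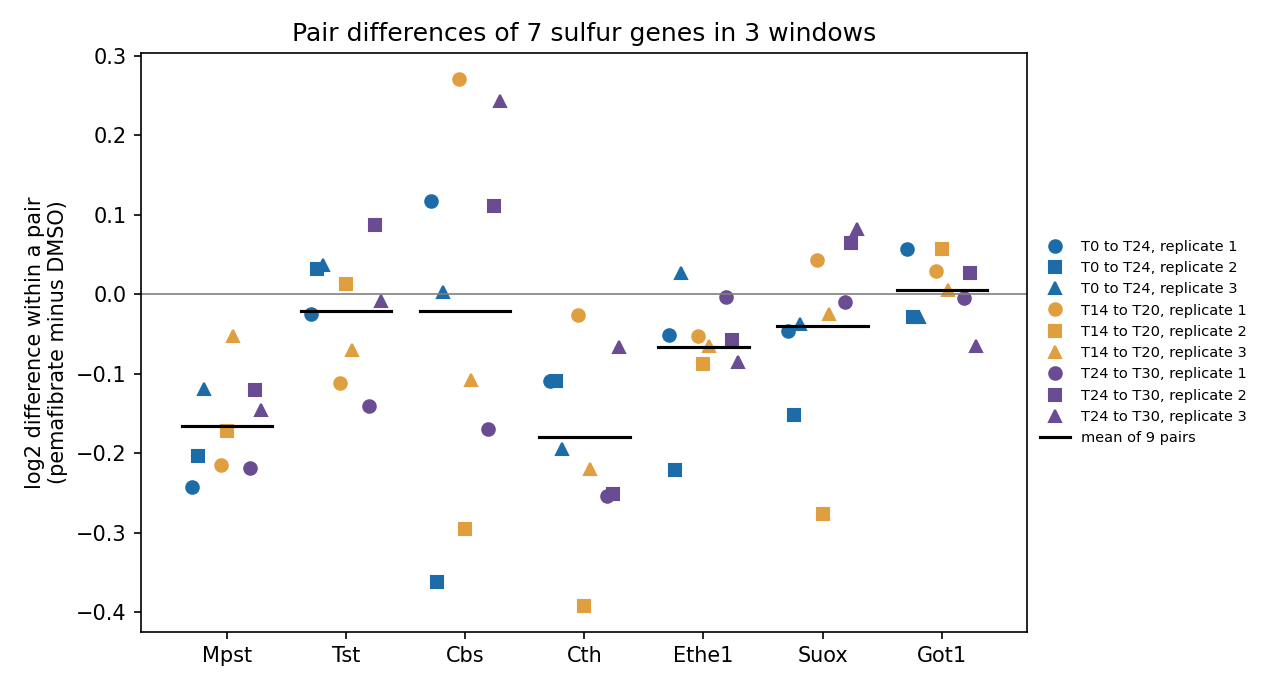
Log2 difference between pemafibrate and DMSO within each pair for 7 of the genes (Cdo1 is left out for its low level). Colours mark windows, symbols mark replicate numbers, and black bars are the means of 9 pairs. All 9 points of Mpst and of Cth lie below 0, and those of Cbs spread from −0.36 to 0.27.

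Of the 7 genes other than Mpst, limma called none in any window, among 7, 6 and 7 tested in the 24 h, day and night windows. The background was 0.0525%, 0.0379% and 0.0378% of all genes called in those windows. No member had an unadjusted p under 0.05 in a single window, where 5.17%, 8.14% and 7.51% of all genes did. In the fit of 1 effect over the 3 windows limma again called 0 of 7, against 0.189% of 13258 genes, and Cth and Ethe1 were the 2 with an unadjusted p under 0.05, as were 6.45% of all genes. Without the block, 0.0151% of all genes and 0 of 7 members were called over the 3 windows. The median log2 difference of the 7 genes over the 3 windows was −0.02, and that of all genes was −0.0025. In none of the 24 combinations of gene and window, Mpst included, did all pemafibrate libraries lie below all DMSO libraries or above them. Of all genes, 1.35%, 1.36% and 2.13% had all pemafibrate libraries below all DMSO libraries in the 3 windows. The share of all genes with all of them above was not counted, so this background covers 1 direction only.

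The difference in Mpst had similar estimates in the 3 windows, which is a description with no test, since these estimates come from the same 9 pairs that chose the gene. The other 7 genes were tested for a change of the pemafibrate effect between windows. Limma called 0 of 7 in each of the 3 comparisons, and 0% of 13258 genes. At an unadjusted p under 0.05 there were 0 of 7, beside 9.24%, 4.93% and 7.97% of all genes. For Cth, the day effect less the night effect was −0.02 (95% interval −0.28 to 0.23), the 24 h effect less the day effect was 0.07 (−0.18 to 0.33), and the 24 h effect less the night effect was 0.05 (−0.20 to 0.31; limma, adjusted p = 0.967, 0.994 and 0.942). These intervals still allow a difference between windows larger than the Cth effect itself. The day and night windows had the same exposure of 6 h, but they differ both in clock time and in hours after synchronization, which cannot be told apart. Exposure length also differs in the comparisons with the 24 h window.

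Mpst and most of the other genes varied more by replicate number than by treatment. Mpst averaged 771 ± 71.1, 975 ± 107 and 780 ± 46.9 normalized counts in replicates 1, 2 and 3 (SD, n = 6, set across tables that were normalized separately). With window and treatment in the model, Mpst was higher in replicate 2 than in replicate 1 by 0.34 ± 0.05 and lower in replicate 3 than in replicate 2, at −0.32 ± 0.05 (log2, SE, limma, adjusted p = 1.1e-04 and 1.6e-04). Replicates 3 and 1 differed by 0.02 (95% interval −0.09 to 0.13). Libraries of 1 number may share a culture or day, so these p-values compare sets of libraries.

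Tst, like Mpst, was lower in replicate 3 than in replicate 2. It averaged 1348 ± 54.0, 1439 ± 60.9 and 1167 ± 55.9 in replicates 1, 2 and 3 (SD, n = 6, across tables). Tst was lower in replicate 3 than in replicate 1 (−0.21 ± 0.04, limma, adjusted p = 7.6e-04) and than in replicate 2 (−0.30 ± 0.04, adjusted p = 3.3e-05).

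Of the transsulfuration genes, Cth was set apart by replicate 3, while Cbs was highest in replicate 1. Cth averaged 309 ± 41.0, 279 ± 36.6 and 460 ± 52.3 in replicates 1, 2 and 3, and was higher in replicate 3 than in replicate 2 by 0.72 ± 0.08 (limma, adjusted p = 3.6e-06). Cbs averaged 931 ± 192, 602 ± 68.1 and 495 ± 109, and was lower in replicate 3 than in replicate 1 (−0.92 ± 0.16, limma, adjusted p = 2.1e-04). The highest Cth was thus in the libraries with the lowest Cbs mean. Cbs was not called for replicate 3 against 2, however (limma, adjusted p = 0.099 to 0.203 over the alternative settings), and Cth was not called for replicate 2 against 1. No opposed pattern of these genes is read from the means. Ethe1 was higher in replicate 3 than in replicate 1 by 0.20 ± 0.05 (limma, adjusted p = 0.0052).

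**Figure D3:**
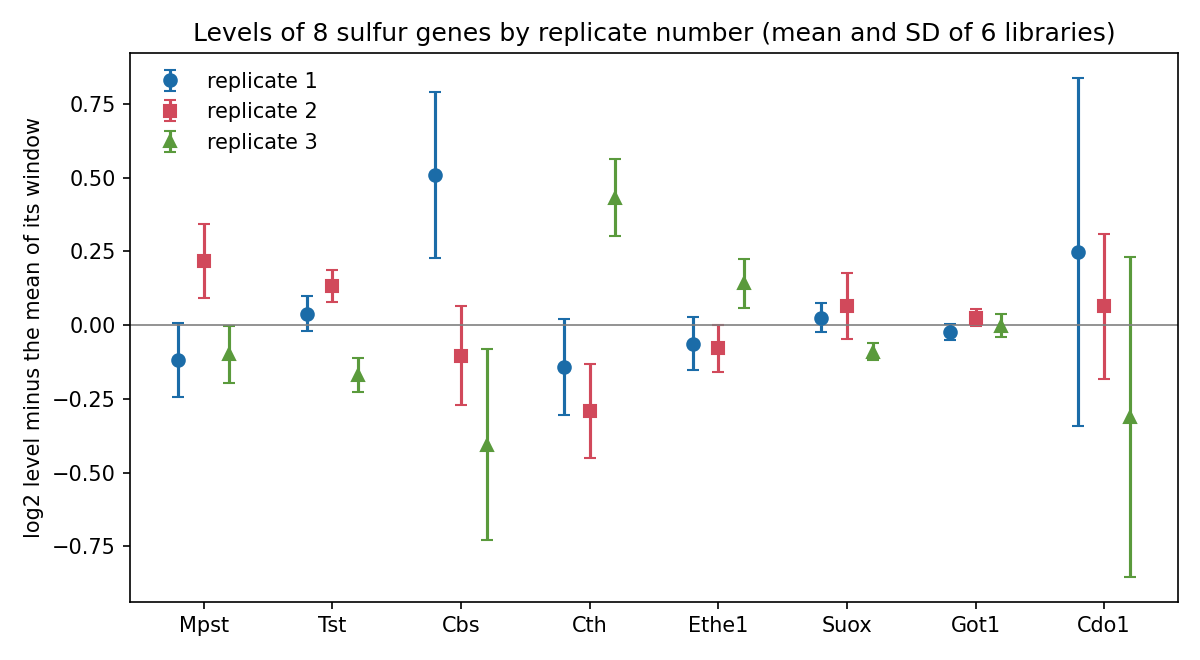
Log2 level of each gene minus its mean over the 6 libraries of the window, by replicate number (colour and symbol). Points are means and bars are SD of 6 libraries. Mpst is highest in replicate 2 and Cth in replicate 3, and Cbs is highest in replicate 1.

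Limma called 2 of 8 genes for replicate 2 against 1, 4 for replicate 3 against 1 and 5 for replicate 3 against 2. The shares of all genes called were 45.2%, 51.6% and 44%, and nothing particular to the 8 genes is read from these counts. Got1 and Cdo1 were called in none of these comparisons. With the DMSO libraries alone the counts were 1, 3 and 3, and Cbs (replicate 2 against 1), Ethe1 and Suox were then not called. Hepatocyte markers moved with replicate number as well. Of 9 measured, 5 were called lower and 1 higher in replicate 2 than in replicate 1. In replicate 3 against 1, 4 were lower and 2 higher, and in replicate 3 against 2, 4 were lower and 3 higher. With 45.2%, 51.6% and 44% of all genes called, nothing particular to these markers is read from the counts. Their summed level was 160348 to 179738 in replicate 1, 129026 to 146658 in replicate 2 and 159071 to 180812 in replicate 3. Summed biliary markers were 51669 to 60371 in replicate 1, 69741 to 76849 in replicate 2 and 49624 to 54116 in replicate 3. This sum was highest, without overlap, in replicate 2, in which Mpst was also highest. The sums are unweighted and rest mainly on their highest genes. These were Spp1 (median 36839) in the biliary list and Krt8 (64650) and Krt18 (51359) in the hepatocyte list. Spp1 ran from 28984 to 60975, and its highest value exceeded every biliary sum of replicates 1 and 3. The order of the biliary sums thus mainly shows Spp1. Krt19 (5793 to 12788), Krt7 (3808 to 5905) and Sox9 (2757 to 4982) were not compared by replicate number, so no shared direction of biliary markers is read. The part of either list in the sulfur gene levels was not tested.

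The genes whose levels followed Mpst most closely were ranked by Pearson r over the 18 libraries, centred within each window, among 13257 genes. They were Nubpl (r = 0.91), which assembles respiratory complex I, Smpd1 (0.90), the acid sphingomyelinase, Mpc1 (0.89), a subunit of the mitochondrial pyruvate carrier, Fbxo6 (0.89), a ubiquitin ligase subunit that binds glycoproteins, and Mocs3 (0.88), which activates carrier proteins for molybdenum cofactor synthesis and tRNA thiolation. All 5 were highest in replicate 2, and the libraries share replicate numbers, so r is a description and carries no p. The pemafibrate difference of Mpst is part of this r, so the direction of these genes with pemafibrate was partly fixed by their choice and is given without a test. Their mean log2 differences within pairs were −0.14 for Nubpl, −0.04 for Smpd1, −0.06 for Mpc1, −0.03 for Fbxo6 and −0.05 for Mocs3.

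Another 56 genes of sulfur metabolism in 5 lists were examined beside the set, and 52 of them were tested in the fit over the 3 windows. Limma called none of them in any window or over the 3 windows, against the background shares given above. At an unadjusted p under 0.05 there were 1, 1 and 4 in the 24 h, day and night windows and 2 over the 3 windows. Their median log2 difference was −0.0075 over the 3 windows, with 22 positive and 30 negative, beside −0.0025 for all genes.

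In the sulfide oxidation and persulfide list (10 of 11 tested) 4 differences were positive and 6 negative over the 3 windows, with a median of −0.02. Its smallest p-values belonged to Cars2, the mitochondrial cysteinyl-tRNA synthetase, which also forms cysteine persulfides (−0.07 ± 0.03), and Txnrd1, the cytosolic thioredoxin reductase (−0.03 ± 0.02, SE; limma, adjusted p = 0.825 and 0.868). In the methionine cycle (9 of 11 tested) 2 were positive and 7 negative, with a median of −0.03. Mat2a, a methionine adenosyltransferase, was at −0.03 ± 0.02 (SE, limma, adjusted p = 0.860).

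The glutathione, taurine and cysteine supply list (12 of 13 tested) had 8 positive and 4 negative differences and a median of 0.01. Slc1a4, a neutral amino acid transporter, was at −0.12 ± 0.04 and Gsr, glutathione reductase, at 0.05 ± 0.02 (limma, adjusted p = 0.420 and 0.777). Of the 6 genes of the malate-aspartate shuttle, in which Got1 also acts, 2 were positive and 4 negative with a median of −0.01. Slc25a12, an aspartate-glutamate carrier, was at 0.07 ± 0.03 and Mdh1, the cytosolic malate dehydrogenase, at −0.07 ± 0.04 (limma, adjusted p = 0.663 and 0.842). Among 15 genes of molybdenum cofactor synthesis, on which Suox depends, sulfur transfer and sulfate handling, 6 were positive and 9 negative with a median of −0.004. Slc26a1, a sulfate transporter, was at −0.24 ± 0.17 and Papss2, which activates sulfate, at 0.13 ± 0.09 (limma, adjusted p = 0.872 and 0.885).

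**Figure D4:**
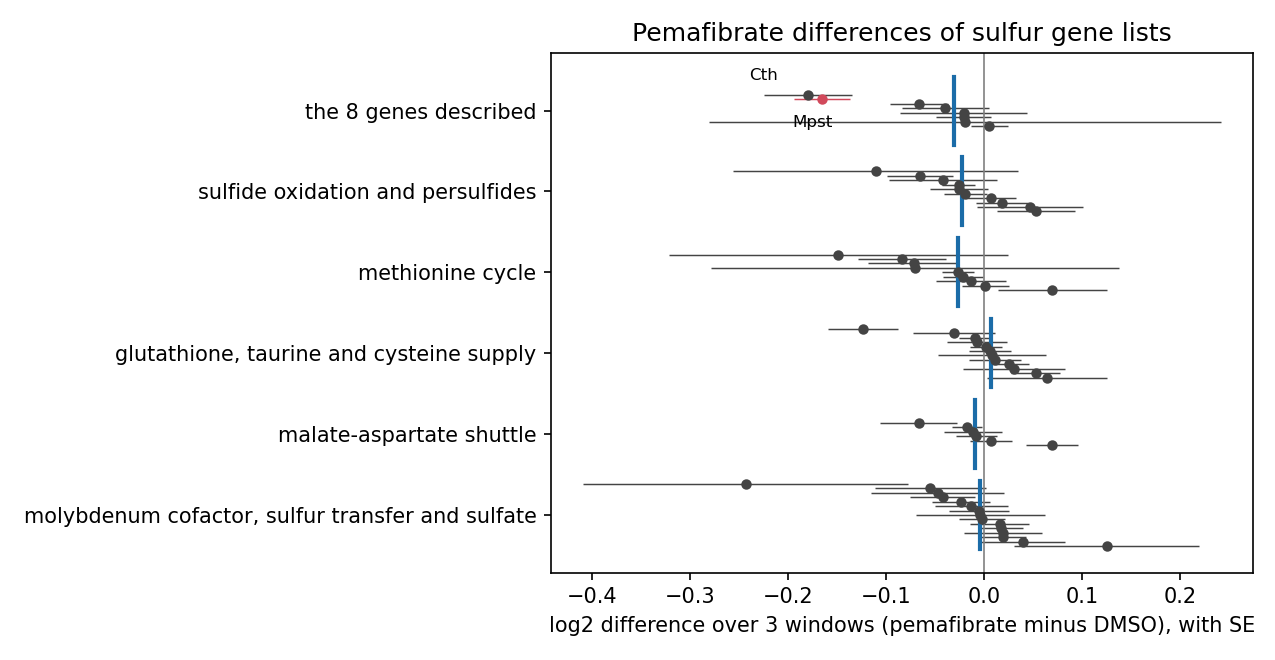
Log2 difference between pemafibrate and DMSO over the 3 windows (x axis, with SE) for each tested gene of the set and of the 5 sulfur lists (rows). Blue bars are medians, and Mpst is in red. Mpst (−0.17) and Cth (−0.18) lie left of the other 6 genes described, and the list medians lie between −0.03 and 0.01.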

How the data were processed

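Poly(A) RNA was sequenced as dUTP-stranded libraries, per the labels' protocols. The authors deposited 1 table per window with normalized signal, that is estimated counts scaled between its 6 libraries, per the file names and headers; column names end as salmon files do. The aligner, build, annotation and scaling method are unknown: not given in the sources used here. Between 56.5% and 74.4% of values up to 8 reads were whole multiples of 1 read (tolerance 0.05), so whole reads could not be recovered. Depth is unknown and only log values were tested. Gene names matched 35181 identifiers.

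Tests used log2(value + 1), a scale on which low genes change less than they do in counts, and genes whose mean in a fit reached 10. The tool was limma 3.58.1 (R 4.3.3, variance trend, Benjamini-Hochberg adjustment over all genes, threshold 0.05, two-sided). Pemafibrate fits had each pair of 1 window and replicate number as a block. The pairing comes from the numbers in the titles. Deviations from group means correlated at 0.31 to 0.62 in all 9 pairs of the same number and at −0.42 to −0.11 otherwise. The negative values follow in part from the centring, since deviations within a group cancel out. Pairs of the same number in different windows were treated as independent. Replicate numbers were compared with window and treatment in the model. Fits were also run on simulated data with planted changes and independent errors for each library. A pemafibrate difference shared by pairs of 1 replicate number was not simulated, and no result here rests on that run. Alternatives were other pseudocounts (0.5 and 5), filters (none and 50), TMM (the published formula, coded in R) or upper-quartile rescaling, no trend, no block, DMSO libraries alone and leaving out each replicate number.

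Members and lists were chosen with earlier results of these data known. The rule for named genes took all members, 2 genes of the smallest p per list (none was called, and 1 is not reported here), the 5 genes most like Mpst, and Acot1, Angptl4 and Plin2. The row of Mpst in pemafibrate fits, window differences included, was used without its p-value.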

Additional observations from a re-analysis of the deposited data

How the results depend on the processing

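The log2 difference of Mpst was also taken in 12 other settings per fit. It was −0.22 to −0.16 over T0 to T24 and −0.19 to −0.11 over T14 to T20. It was −0.18 to −0.13 over T24 to T30 and −0.20 to −0.14 over the 3 windows. The negative sign was largely fixed by the choice of Mpst, so these ranges describe only the size. None of the other 7 genes and none of the 5 lists' genes was called for pemafibrate in any setting, and the fit without the replicate block again called 0 of the 7 genes, with adjusted p = 1.000 for Cth over the 3 windows, against 0.293 with the block and 0.247 to 1.000 over all settings. That fit called 2 genes in all over the 3 windows, against 25 with the block, and 0 against 7, 5 and 5 in the single windows, and Acot1 and Plin2 were then not called (adjusted p = 0.076 and 0.060). Averaging windows within each replicate number gave Cth adjusted p = 0.462. With DMSO libraries alone, which are fewer, the counts of the 8 genes called fell from 2 to 1 for replicate 2 against 1 and from 5 to 3 for replicate 3 against 2. The counts of the 52 list genes fell from 21 to 8 for replicate 2 against 1, from 23 to 10 for replicate 3 against 1 and from 21 to 12 for replicate 3 against 2. Suox was called lower in replicate 3 than in replicate 1 with upper-quartile rescaling (−0.15, adjusted p = 0.036) and without the variance trend (adjusted p = 0.047), and without the filter its difference between replicates 3 and 2 was not called (adjusted p = 0.053). Depth is unknown, and the low values of Cdo1 limit what can be said of it.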

Other observations

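Slc7a11, which imports cystine for cysteine and glutathione, was picked out after its values were seen, so its p-values below are a description and no support. Like Cth, it was highest in replicate 3, but Cth was not called for replicate 2 against 1. A correlation of these genes was not computed. Over T14 to T20 Slc7a11 had 491, 510 and 931 normalized counts with DMSO in replicates 1, 2 and 3, and 640, 474 and 862 with pemafibrate. With window and treatment in the model it was higher in replicate 3 than in replicate 2 by 0.94 ± 0.08 and than in replicate 1 by 0.54 ± 0.08 (log2, SE, limma, adjusted p = 3.0e-07 and 5.3e-05), and lower in replicate 2 than in replicate 1 (−0.39 ± 0.08, adjusted p = 9.0e-04). The last call was lost with the DMSO libraries alone (−0.32, adjusted p = 0.082). Over the 5 sulfur lists 21 of 52 genes were called for replicate 2 against 1 and 23 for replicate 3 against 1, or 40.4% and 44.2%, beside 45.2% and 51.6% of all genes.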
